A study of Mus musculus with 3 samples.

Results

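The wild-type library described here is 1 of the 3 RNA sequencing libraries of this mouse keratinocyte series, and it was chosen by its genotype label, wt. The cells came from the C57BL/6 strain, had been immortalised with SV40 and were growing exponentially when RNA was taken, and the other 2 libraries carry the same strain and immortalisation labels. Those libraries (ARPC4 ko and Nrf2-EGFP) enter no value below. The labels give no age, sex, body site or clone for the cells, so the profile is that of 1 culture and the spread between cultures was not measured. No test was made. Ranges in parentheses are 95% exact Poisson intervals of the counts and cover counting error only. Copies of 1 molecule made by PCR were not removed by identifiers, so the intervals can be too narrow even for that error. Levels of different genes are compared per length, as TPM (transcripts per 1000000: counts divided by the merged exon length of the gene and scaled to 1000000 over all genes). Counts per 1000000 gene counts (CPM) are given where length plays no part. The intervals take the length as given, and another choice of length can turn the order of genes with similar levels. It can also part pairs whose intervals overlap or that are said not to differ beyond counting error. Ranks run from 1, the highest TPM, over 21474 protein-coding genes.

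The epidermis is a stratified epithelium. Its basal keratinocytes divide, hold on to the basement membrane through hemidesmosomes and integrins, and make the keratin pair Krt5 and Krt14 under the control of the transcription factor p63. Cells that leave the basal layer switch to Krt1 and Krt10, strengthen their desmosomes and finally crosslink a cornified envelope, while wounded or rapidly growing epidermis makes Krt6, Krt16 and Krt17. Large T antigen of SV40, used for immortalisation, binds the retinoblastoma and p53 proteins.

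The library held 22924294 gene counts, so 1 count is 0.0436 CPM. A gene listed at 0 can have a true level of up to about 3 counts (0.131 CPM), the limit meant wherever 0 counts are reported. It is set on 1 side only and is lower than the upper end that the exact interval would give. A count was found in 16823 of 41214 gene identifiers. Of the protein-coding genes, 11049 (51.5%) reached 1 TPM, the level taken here as expressed, and 2006 (9.34%) reached 100 TPM. Counts of list members at these levels are to be read against these shares. The bands held 2595 genes at 1 to 10 TPM, 6448 at 10 to 100, 1914 at 100 to 1000 and 92 at 1000 or more. The median of all protein-coding genes was 1.42 TPM and that of the expressed ones 30.02 TPM. The 10 protein-coding genes of highest TPM held 9.87% of all TPM and the 1000 highest held 56.7%. Mitochondrial genes took 1.33% of the counts and ribosomal protein genes 3.26%. Alignments to more than 1 place, which the authors' counts leave out of genes, were 7.64% of all entries of the table.

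The 4 markers that define the labelled cell type were all expressed. Krt14 (ENSMUSG00000045545; GRCm38 chromosome 11, 100203162 to 100207548) had 15234 TPM (15160.2 to 15307) and Krt5 (ENSMUSG00000061527; chromosome 15, 101707070 to 101712898) had 14865 TPM (14799.9 to 14929.5). They ranked 1 and 2 among all protein-coding genes with merged exons as length. These ranks did not hold when length was the number of read-sized windows found in no other annotated gene. Krt14 then had 11282 TPM and Krt5 10362, below mt-Co1 (15598.5), Eef1a1 (15182) and Rplp1 (11362). Trp63, the gene of p63 (ENSMUSG00000022510; chromosome 16, 25683763 to 25892102), had 129 TPM (126 to 132; rank 1488), and Itga6, the integrin chain of the hemidesmosome (ENSMUSG00000027111; chromosome 2, 71745616 to 71858416), had 225 TPM (221 to 229; rank 765). With the longest transcript in place of the merged exons as length, Itga6 had 359.8 TPM. Of 14 basal keratinocyte markers, 13 reached 1 TPM and 11 reached 100 TPM, with a median of 465 TPM. The member that did not was Krt15, a keratin of basal and hair follicle stem cells, with 2 counts.

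Most markers of other skin cells were near the lower limit. Of 59 markers of fibroblasts, melanocytes, immune cells, endothelium and Merkel or glial cells, 34 had 0 counts and 8 reached 1 TPM, against 51.5% of all protein-coding genes. The fibroblast collagens Col1a2, Col3a1, Col6a1 and Col6a3 had 0 counts and Col1a1 had 2. Vim, the intermediate filament of mesenchymal cells and of many cultured epithelial cells, had 12 counts (0.408 TPM, 0.211 to 0.713), and all of its 65-base windows, the length of a read, were unique, that is found in no other annotated gene. The number of unique windows served as another length. Pdgfrb, Dcn, Lum and Thy1 had 0 counts. The pan-leukocyte gene Ptprc had 1 count, and Tyr, Tyrp1, Dct and Sox10 of melanocytes and Vwf of endothelium had 0. The marker with the highest level was Cd68, at 15.9 TPM, a lysosomal protein that is not confined to macrophages. S100a4 (13.3 TPM, or 25.0 and above Cd68 with unique windows as length), Cdh2 (9.63 TPM), Ncam1 (9.24 TPM) and Acta2 (8.38 TPM) followed. The other members at 1 TPM or more were Pmel (1.55 TPM) and Mitf (1.46) of melanocytes and Eng (1.20) of endothelium. In RNA from a whole culture, fewer cells of a type and less RNA per cell cannot be told apart.

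**Figure D1:**
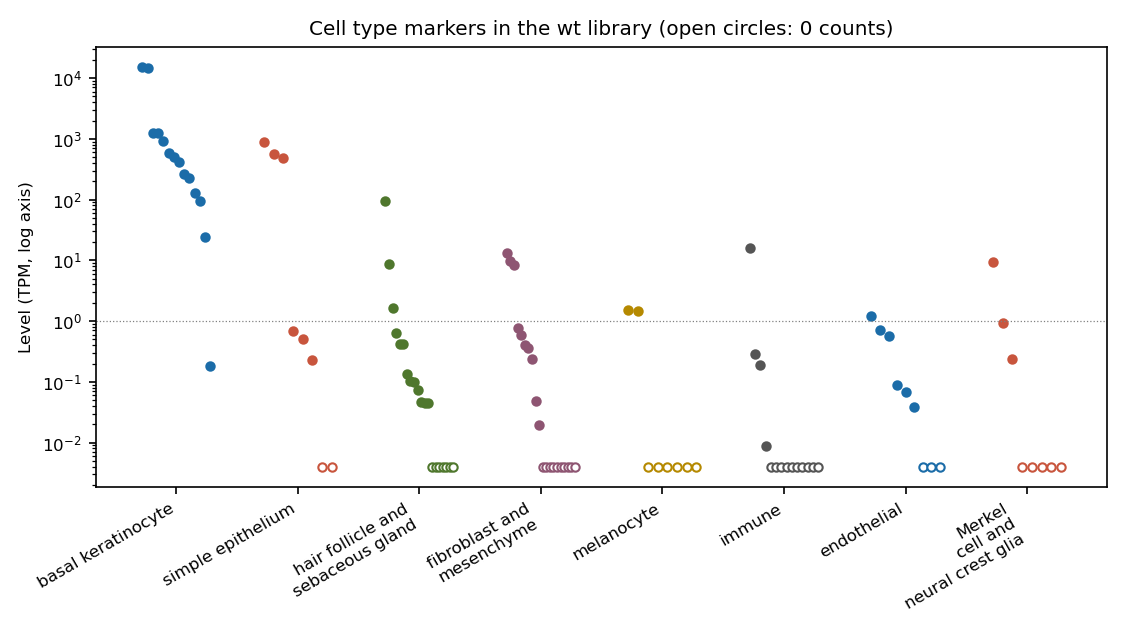
Level in TPM on a log axis (vertical) of each marker in 8 lists (horizontal), with 1 point per gene in the wt library; open circles are genes with 0 counts and the dotted line is 1 TPM. Of the basal keratinocyte markers 13 of 14 lie above the line, whereas 51 of the 59 markers of the 5 lists on the right lie below it.

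Keratins are the intermediate filament proteins of epithelia, and each filament pairs a type I with a type II chain. The annotation matched 53 keratin genes, of which 12 reached 1 TPM, 15 others had at least 1 count and 26 had 0. Together they held 4.48% of all TPM and 2.34% of the counts. Krt14, Krt5, Krt17 and Krt6a made up 96.0% of the keratin TPM and were among the 12 highest protein-coding genes. Type I keratins summed to 24642 TPM and type II keratins to 20199 TPM, a ratio of 1.22 per length, whereas the ratio of their counts was 0.912. Krt14 likewise exceeded Krt5 1.02-fold in TPM but had fewer counts (165907 against 202316), so the order of this pair turned where no length was used. The ratio stayed above 1 with the other lengths tried, at 1.06 with the longest transcript and 1.09 with unique windows.

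The stress keratins were high and uneven. Krt17 had 8534 TPM (8476 to 8593; rank 6) and Krt6a 4398 TPM (4365 to 4432; rank 12). Krt16, the usual partner of Krt6, had 386 TPM (rank 379), 22.1-fold below Krt17, and Krt6b had 19.8 TPM, 222.2-fold below Krt6a. These genes share sequence: of the 65-base windows, 59.2% in Krt6a, 56.0% in Krt6b and 69.0% in Krt16 occurred in no other annotated gene, against 99.1% in Krt17. Reads from shared windows can be left out of the counts, so the levels of Krt6a, Krt6b and Krt16 are uncertain.

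Keratins of simple epithelia were also present. Krt8 had 879 TPM (862 to 895; rank 115) and its partner Krt18 476 TPM (461 to 490.2; rank 285). They were 16.9-fold below Krt5 and 32.0-fold below Krt14, respectively. The other simple epithelial keratins were close to 0, with 10 counts for Krt7 and 0 for Krt19 and Krt20. Epcam, an adhesion protein of simple epithelia, had 563 TPM (rank 225). The suprabasal pair was low: Krt10 had 7.94 TPM (6.49 to 9.62) and Krt1 1.097 TPM (0.740 to 1.57), with 104 and 30 counts. Krt80 had 35.3 TPM and Krt42 3.66 TPM. Of the hair follicle keratins, Krt25, Krt71, Krt72 and Krt75 had 0 counts and Krt32 had 5. Of 56 keratin-associated protein genes, which encode hair matrix proteins, Krtap3-2 alone had any, with 2.

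**Figure D2:**
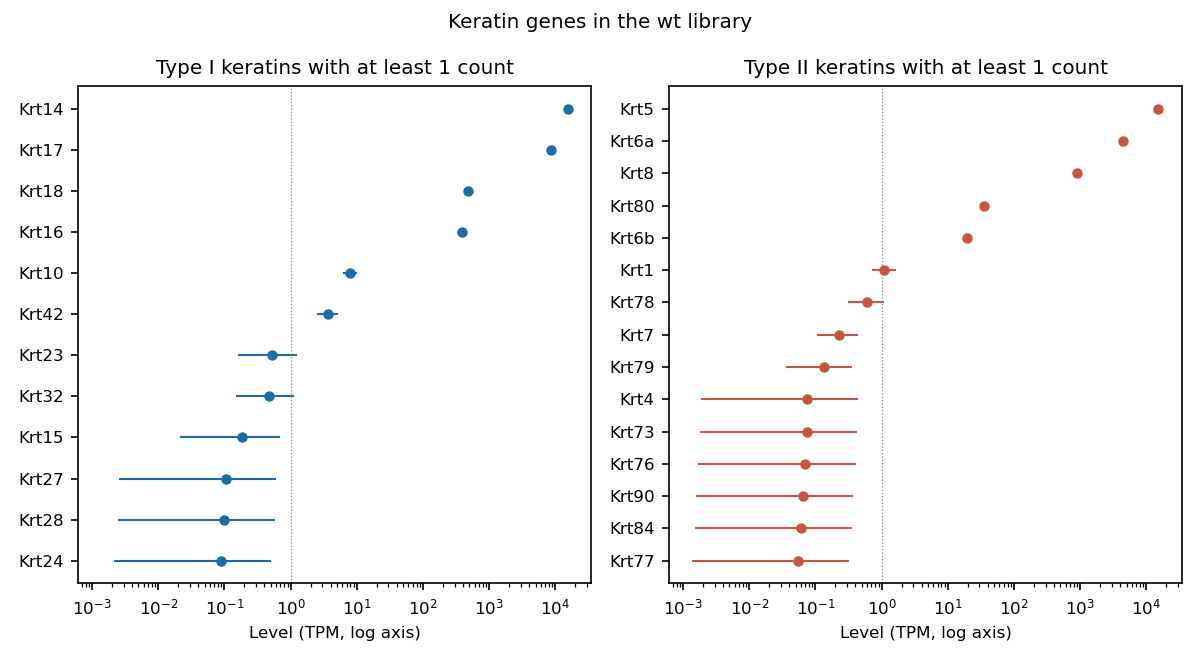
Level in TPM (horizontal, log axis) of every keratin with at least 1 count in the wt library, type I on the left and type II on the right; bars are 95% counting intervals and the dotted line is 1 TPM. Krt14, Krt17, Krt5 and Krt6a stand between 4398 and 15234 TPM, Krt8, Krt18 and Krt16 between 386 and 879, and Krt10 and Krt1 at 7.94 and 1.097.

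Hemidesmosome and anchorage genes were uniformly high. All 10 reached 100 TPM, against 9.34% of protein-coding genes, with a median of 340.3 TPM. Col17a1, the transmembrane collagen of the hemidesmosome, had 1256 TPM (1245 to 1268; rank 62), and Itgb4, the integrin chain found there with Itga6, had 507 TPM. The cytoplasmic plaque genes Plec (plectin) and Dst (dystonin) had 244 and 134.2 TPM, and the tetraspanin gene Cd151 had 267. Of the chains of the laminin that this complex binds, Lama3 had 414 TPM (409 to 419) and Lamb3 422 TPM (416 to 429), and their intervals overlapped. With the longest transcript as length Lama3 had 321.5 TPM and Lamb3 437.7, and with unique windows 268.3 and 367.8. Col7a1, the collagen of anchoring fibrils, had 190.0 TPM.

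Of all integrin genes, 8 of 18 alpha (44.4%) and 5 of 8 beta chains (62.5%) reached 1 TPM, against 51.5% of all protein-coding genes. Itgb1, the partner of most alpha chains in keratinocytes, had 1227 TPM (1213 to 1241; rank 69), 2.42-fold above Itgb4. Itga3, which binds the same laminin, had 577 TPM (rank 216), 2.56-fold above Itga6 with merged exons as length, 1.44-fold with the longest transcript and 1.34-fold with unique windows. The chains that follow in order were Itgb6 (82.6 TPM), Itgav (78.1), Itgb5 (64.5), Itga5 of the fibronectin receptor (25.4, 23.6 to 27.2) and Itga2 of the collagen receptor (24.2, 22.8 to 25.7), and the last pair did not differ beyond counting error. With the longest transcript as length Itga5 had 21.6 TPM and Itga2 18.5. Leukocyte integrins Itgae, Itgam and Itgax and the platelet chain Itgb3 had 0 counts. Other chains of blood cells had some: Itga2b 52 counts (1.54 TPM), Itgb7 9, Itgb2 5, Itga4 3, and Itgal and Itgad 1 each. Among 21 focal adhesion genes 20 reached 1 TPM. The actin crosslinkers Flna (815 TPM), Actn1 (670.0) and Actn4 (447) were highest, talin 1 (Tln1) had 160.0, and the blood cell kindlin Fermt3 was the member below, at 0.530.

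Laminin chains outside that trimer were lower. Lamb1 had 111 TPM, Lama5 98.8 and Lamc1 95.7, followed by Lamb2 at 9.10. Lama1, Lama2, Lama4 and Lamc3 had between 1 and 3 counts. Of 44 collagen genes 12 reached 1 TPM. After Col17a1 came the basement membrane collagens Col18a1 (708 TPM), Col4a2 (278, 273 to 283) and Col4a1 (273, 268 to 277), the last pair with overlapping intervals, and then Col7a1 and Col8a1 (58.2). With the longest transcript as length Col4a1 (235 TPM) stood above Col4a2 (218). Of 35 matrix glycoprotein and crosslinking genes, 22 reached 1 TPM, with a median of 3.18 TPM. Thbs1, the matricellular protein thrombospondin 1, had 859 TPM and held 44.2% of the list. Agrn (agrin), Ccn1, Fn1 (fibronectin), Hspg2 (perlecan) and Tnc (tenascin C) lay between 112 and 216 TPM.

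Desmosomes, which join keratin filaments of neighbouring cells, were represented by their basal cadherins. Dsc3 had 428 TPM (421 to 435) and Dsg3 354 TPM (349 to 360.0), Dsc2 had 70.0 and Dsg2 35.8. The suprabasal cadherins were lower, with 7.12 TPM for Dsg1b, 2.92 for Dsg1a and 1.09 for Dsc1, and Dsg1c and the hair cadherin Dsg4 had 4 counts and 1 count. Dsg3 was 49.7-fold above Dsg1b (31.7-fold with unique windows as length) and Dsc3 394-fold above Dsc1. All 9 plaque and associated genes reached 1 TPM and 6 reached 100. Perp, a tetraspan protein of desmosomes, had 2294 TPM (rank 22), the linker Dsp (desmoplakin) 979, Pkp1 (plakophilin 1) 870.3 and Jup (plakoglobin) 608. The plakophilins followed the order Pkp1, Pkp3 (300.5 TPM), Pkp4 (87.3) and Pkp2 (22.0).

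The classical cadherins of epithelia outweighed the mesenchymal one. Cdh1 (E-cadherin) had 856 TPM (845 to 866), Cdh3 (P-cadherin), a marker of basal cells, 261 TPM, and Cdh2 (N-cadherin) 9.63 TPM, 88.9-fold below Cdh1 (55.1-fold with the longest transcript as length). Of 23 cadherins, 5 reached 1 TPM, and Cdh13 (5.78 TPM) and Cdh24 (4.49) were the others. The catenins Ctnnb1 (426 TPM) and Ctnna1 (323), which tie cadherins to actin, lay between Cdh1 and Cdh3. Of 25 claudins, the strand proteins of tight junctions, 7 reached 1 TPM. Cldn4 had 421 TPM, and Cldn1 (125, 121 to 129) and Cldn12 (120.3, 116 to 125) did not differ beyond counting error. With the longest transcript as length Cldn1 had 111.7 TPM and Cldn12 103.4. Among connexins, the channel proteins of gap junctions, Gja1 had 109.9 TPM, or 221 with the longest transcript as length. Gjb2 had 3.56 TPM and Gjb6 1 count.

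**Figure D3:**
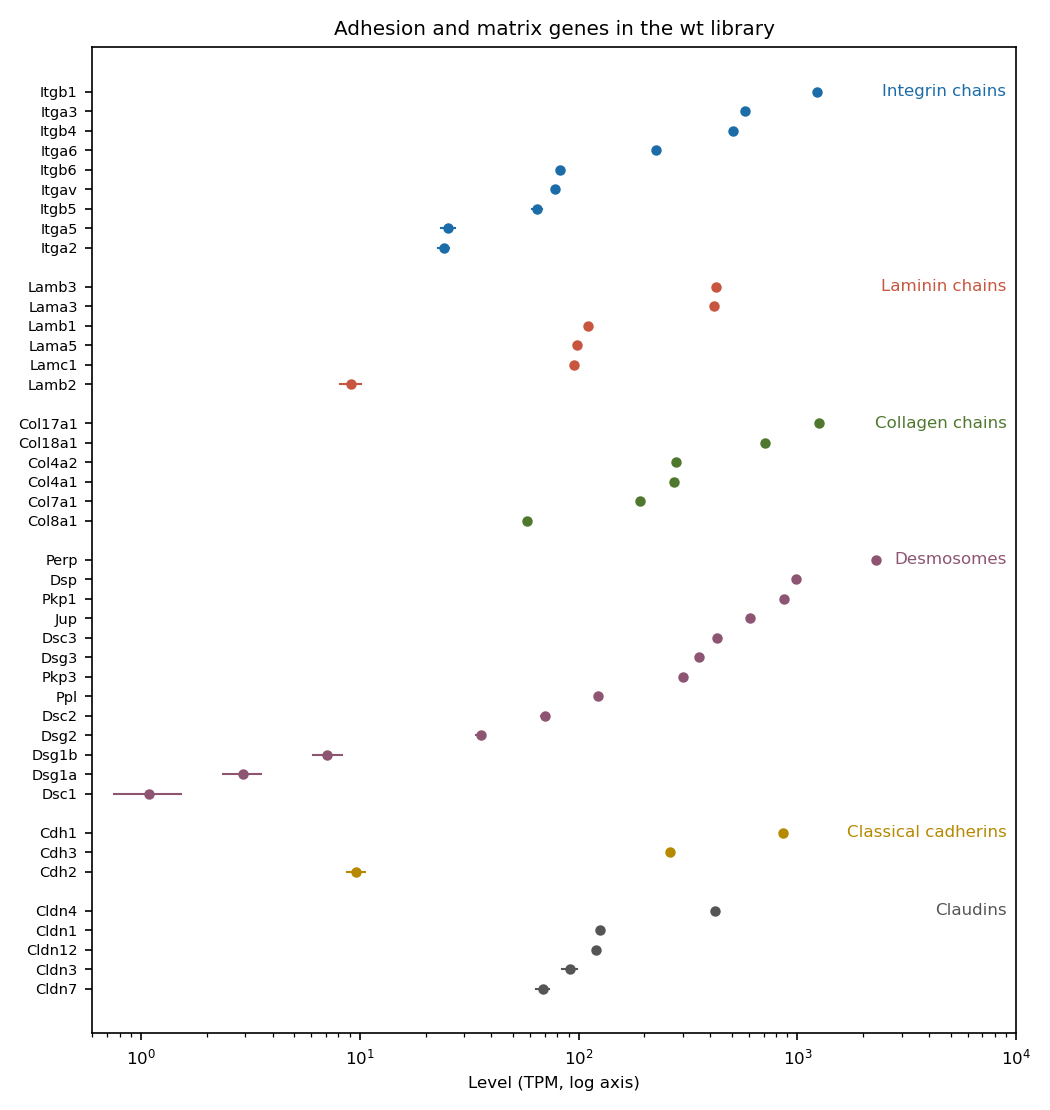
Level in TPM (horizontal, log axis) of selected adhesion and matrix genes in the wt library, in 6 groups shown by colour; bars are 95% counting intervals, shorter than the points for most genes. Perp, Col17a1 and Itgb1 lie above 1000 TPM, and the suprabasal cadherins Dsg1b, Dsg1a and Dsc1 between 1.09 and 7.12.

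Differentiation genes ranged from high to absent. Of 24 suprabasal markers 18 reached 1 TPM, but the median was 8.22 TPM and Dmkn (dermokine), at 627 TPM (rank 192), held 63.8% of the list. Sbsn (suprabasin) had 67.4 TPM, the lipid transporter Abca12 45.0, the protease Asprv1 37.8 and Casp14 36.7. Tgm1, which crosslinks the envelope, had 13.4 TPM and involucrin (Ivl) 13.4. Of 20 cornified envelope genes 13 reached 1 TPM and 6 reached 100. S100a11 (7919 TPM, rank 7), Anxa1 (2534, rank 20), S100a10 (2229.8) and Cstb (664) were highest. Lor (loricrin), of the granular layer, had 12 counts, and Flg2, Hrnr, Sprr3, Sprr4 and Tchhl1 had 0. Of 14 Sprr genes 6 reached 1 TPM, with Sprr1b at 277 TPM (263 to 292) and Sprr2h at 107, and of 20 Lce genes, late envelope proteins, 2 did.

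S100 proteins bind calcium, and 13 of 17 reached 1 TPM. After S100a11 and S100a10 came S100a6 (1899.8 TPM), S100a14 (881) and S100a16 (426). The alarmins of inflamed skin, S100a8 and S100a9, had 14 and 8 counts (3.26 and 2.47 TPM). Sfn, the 14-3-3 protein stratifin of stratified epithelia, had 3957 TPM (rank 15).

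The sequences before the starts of 4 highly expressed genes are shown because they hold the motifs counted in the next paragraph; they were chosen after their levels were seen. Each gives the 100 bases before the RefSeq gene start (GRCm38.p6), 5′ to 3′ on the strand of the gene. Krt5 is at chr15:101712906-101713005 on the minus strand, Anxa1 at chr19:20390672-20390771 on the minus strand, S100a11 at chr3:93520396-93520495 on the plus strand and Itga3 at chr11:95076715-95076814 on the minus strand. Capitals mark ATAAA, part of the TATA box, lying 16 to 40 bases before the start, GGGCGG, the core of the GC box, on either strand, and TGAGTCA, the AP-1 motif, on either strand.
Krt5: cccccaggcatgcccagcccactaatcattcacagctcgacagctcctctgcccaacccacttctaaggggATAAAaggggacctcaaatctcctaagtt
Anxa1: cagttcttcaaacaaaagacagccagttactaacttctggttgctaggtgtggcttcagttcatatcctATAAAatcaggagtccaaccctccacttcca
S100a11: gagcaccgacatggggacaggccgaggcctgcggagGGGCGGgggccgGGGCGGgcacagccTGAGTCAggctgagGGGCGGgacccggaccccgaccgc
Itga3: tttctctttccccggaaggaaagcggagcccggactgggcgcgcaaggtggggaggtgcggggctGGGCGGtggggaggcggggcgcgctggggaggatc

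A RefSeq start within 500 bases of the GENCODE gene start was found for 13684 of 21465 protein-coding symbols, and the 250 bases before it were searched. GGGCGG or its reverse complement CCGCCC was present in 47.7% of them. The share was 66.1% among 56 genes at 1000 TPM or more, 65.2% at 100 to 1000, 65.3% at 10 to 100, 55.3% at 1 to 10 and 27.4% below 1 TPM. ATAAA at 16 to 40 bases before the start, on the strand of the gene only and including every TATAAA, was present in 4.92% of all. It stood before 4 of the 56 genes at 1000 TPM or more (7.14%), before 2.05% of those at 100 to 1000 TPM and 1.53% at 10 to 100, and before 9.01% of those below 1 TPM. CCAAT or ATTGG differed little between bands, from 35.2% to 39.9%. TGAGTCA or its reverse complement TGACTCA stood before 4 of the 56 highest genes, 2.62% at 10 to 100 TPM and 5.37% below 1 TPM. Krt5 and Anxa1 were thus among the 4 of these 56 genes with ATAAA, at 29 and 31 bases before the start. That band holds 92 genes in all, and Krt14, Krt17 and Krt6a are among those without such a start. S100a11 held GGGCGG 3 times and TGAGTCA once in the bases shown. A match is a match of letters and not a measured binding site.

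Transcription factors of the basal epidermis were nearly all expressed, 19 of 20 with a median of 51.7 TPM. Myc had 194 TPM (187 to 201) and Trp63 129, 738-fold above its relative Trp73. Mafg (94.4 TPM), Sox9 (94.1), Bnc1 (basonuclin 1, 94.1) and Tfap2a (AP-2 alpha, 79.5) followed, and the Hippo pathway effectors Yap1 and Wwtr1 had 69.4 and 60.7 TPM. The basonuclin relative Bnc2 was the member below 1 TPM, with 6 counts. Of the AP-2 family Tfap2c had 14.3 TPM and Tfap2b, Tfap2d and Tfap2e were below 1 TPM. Sox15 had 119 TPM (109.6 to 128), the highest of 19 Sox genes, and Gata3 was the only GATA gene to reach 1 TPM, at 27.3.

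Factors of differentiation were expressed at lower levels, 21 of 24 at a median of 24.8 TPM. Klf4, needed for the epidermal barrier, had 104 TPM (99.4 to 109). The Notch target Hes1 had 62.8 TPM, Grhl2 51.6, Ovol1 37.2, Grhl3 30.2, Zfp750 18.5 and Prdm1 4.02. Klf6 (204 TPM) was highest of 17 Klf genes and Ets2 (197) of 26 ETS genes. Among AP-1 subunits, which answer growth and stress signals, Junb (173 TPM, 166 to 179) and Jund (169.9, 162 to 178) did not differ beyond counting error. Fosl1 had 79.95, Jun 74.8, Fosl2 64.4 and Fos 10.4. With the longest transcript as length Junb (167 TPM) stood above Jund (129.6), and with unique windows likewise (143.8 against 111.7). Of the 47 nuclear receptors 21 (44.7%) reached 1 TPM, against 51.5% of all protein-coding genes. Rarg (127 TPM), the retinoic acid receptor of epidermis, and its partner Rxra (93.9) were highest.

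Of 9 factors of epithelial-mesenchymal transition 3 reached 1 TPM, and Snai2 (Slug) stood far above the rest. It had 179.8 TPM (172 to 187; rank 994), 32.4-fold above Snai3 (5.55 TPM), and held 94.6% of the list. Snai1 had 3 counts, Zeb1 3, Zeb2 34, Twist1 6, Twist2 15 and Prrx1 0. Tcf4, at 2.75 TPM, was the other member above 1 TPM.

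Hox genes, which record position along the body axis, divided by cluster. Of 39 matched genes 21 reached 1 TPM, a share near the 51.5% of all protein-coding genes: 9 of 11 in cluster A, 9 of 10 in B, 3 of 9 in C and none of 9 in D. Hoxb9 had 98.1 TPM (93.3 to 103), followed by Hoxa9 (39.4, 37.4 to 41.6), Hoxa7 (34.3, 31.7 to 37.2), Hoxb7 (28.02, 24.8 to 31.6) and Hoxb6 (21.4). The posterior gene Hoxa10 had 15.3 TPM, Hoxa11 3 counts and Hoxa13 0. In cluster C, Hoxc6 had 9.25 TPM, Hoxc13, a regulator of hair keratins, 4.001, and Hoxc4 1.51, whereas Hoxc8, Hoxc10, Hoxc11 and Hoxc12 had 0 counts. All 9 genes of cluster D (Hoxd1, Hoxd3, Hoxd4 and Hoxd8 to Hoxd13) had 0 counts, which for each allows up to 3. The labels do not give the body site of the cells, so these levels cannot be set against it.

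**Figure D4:**
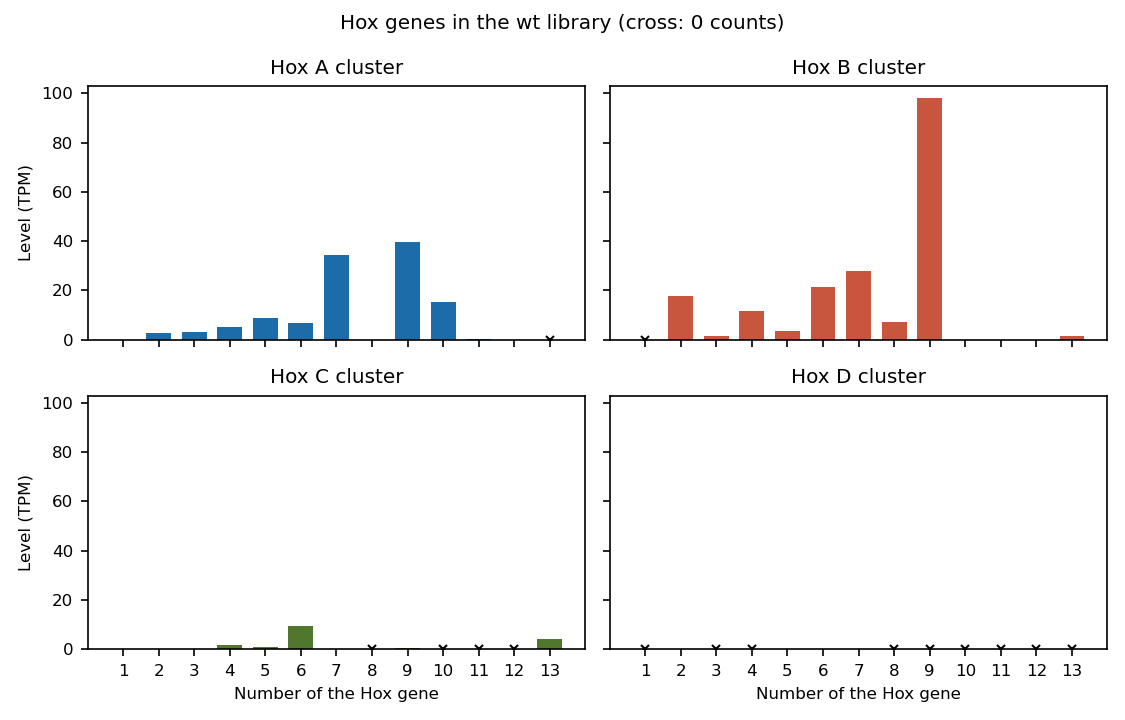
Level in TPM (vertical, linear axis from 0) of the Hox genes of the wt library by the number in their names (horizontal), with 1 panel for each cluster; crosses are genes with 0 counts and numbers without a bar or cross have no matched gene, a level too low to see or a gene that is not shown. Hoxb9, at 98.1 TPM, is the tallest bar, and the panel of cluster D holds crosses only.

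Growth factor receptors of keratinocytes were moderate in level. Erbb2 had 60.4 TPM, Erbb3 52.2 and Egfr 35.5, and Erbb4 had 0 counts. Of the ligands, 8 of 11 reached 1 TPM. Epgn (epigen) had 476 TPM (463 to 489; rank 283), 5.95-fold above Areg (amphiregulin, 79.98) and 70.9% of the list. Tgfa (46.4 TPM), Nrg1 (27.8), Hbegf (20.5) and Ereg (17.9) followed. Fgfr2 had 38.9 TPM, Fgfr3 6.18 and Fgfr1 2.83, whereas the dermal ligands of Fgfr2 that act on epithelium, Fgf7 and Fgf10, had 1 count and 0. With the longest transcript as length Fgfr2 had 69.2 TPM. Of the other receptor tyrosine kinases, Axl (293 TPM, 287 to 299) and the hepatocyte growth factor receptor Met (167) were highest, and Kit and Alk had 0 counts. Epha2 (201 TPM) made up 49.1% of the Eph receptors, and all 8 ephrins reached 1 TPM, from 4.31 for Efnb3 to 83.0 for Efnb1.

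Receptors and ligands of Notch and Wnt signalling were both present. Notch2 (53.7 TPM) and Notch1 (45.7) exceeded Notch3 (4.13), and Notch4 had 4 counts. The ligands Jag1 (200.5 TPM), Jag2 (145) and Dll1 (63.1) exceeded the receptors per length, and Dll3 and Dll4 had 2 counts each. Of 19 Wnt genes 8 (42.1%) reached 1 TPM, against 51.5% of all protein-coding genes. Wnt4 (186 TPM), Wnt10a (165), Wnt7b (89.9), Wnt7a (48.6) and Wnt3a (26.7) were highest. Among 10 Frizzled receptors Fzd6 had 122.7 TPM and 60.9% of the list. For TGF-beta and BMP, Tgfbr2 had 129 TPM, Bmpr1a 56.7 and Tgfbr1 50.1. Tnfrsf12a, the receptor of TWEAK, had 320.5 TPM (rank 475), against 87.9 for the TNF receptor Tnfrsf1a.

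Of 37 interleukin receptor chains 16 (43.2%) reached 1 TPM, near the 51.5% of all protein-coding genes. None of these chains reached 100 TPM, against 9.34% of all protein-coding genes. Their median was 0.430 TPM. Il6st had 49.3 TPM, Il13ra1 38.0, Il4ra 34.1 and Il17re 25.1. The double-stranded RNA sensor Tlr3 (26.4 TPM) made up 64.5% of the Toll-like receptors. Of the secreted signals, Mif had 1217 TPM, Il1a 448 (437 to 460.4; rank 313), Pthlh 188 and Cxcl16 177.

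Proteases and their inhibitors were led by the lysosomal cathepsin Ctsd (1231 TPM) and the epithelial serpin Serpinb5 (718 TPM, rank 156). Serpinb2 had 366 TPM and its target urokinase, Plau, 298. Mmp14 was the highest metalloproteinase, at 61.9 TPM and 60.7% of the family. Of the 22 metalloproteinases 7 (31.8%) reached 1 TPM, against 51.5% of all protein-coding genes. None of these proteases reached 100 TPM, against 9.34% of all protein-coding genes. Their inhibitor Timp2 had 174 TPM, Timp1 76.3, Timp3 25.9 and Timp4 0 counts. Adamts1 (58.9 TPM) held 74.7% of the ADAMTS level and Klk8 (55.0 TPM) 75.4% of that of the kallikreins, which shed surface corneocytes.

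Cell cycle genes were all expressed, 33 of 33 at a median of 172 TPM, and 22 reached 100 TPM. Of all protein-coding genes 51.5% reached 1 TPM and 9.34% reached 100 TPM. The lowest member had 7.97 TPM. Top2a had 449.7 TPM, the ribonucleotide reductase subunit Rrm2 425, Cdk4 422, Pcna 370.2 and Mki67 259.8. Of the inhibitors and tumour suppressors, Cdkn2a had 560.0 TPM (543 to 577; rank 229), Trp53 199, Cdkn2b 102 and Cdkn1a 78.4. Of the retinoblastoma family Rbl1 (95.8 TPM) exceeded Rbl2 (15.8, 14.6 to 16.9) and Rb1 (14.4, 13.2 to 15.6), which did not differ beyond counting error.

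Of 27 glycolytic enzymes 21 reached 1 TPM and 9 reached 100 TPM. The muscle-type pyruvate kinase gene Pkm had 1732 TPM (rank 37; 2716 with the longest transcript as length), and Pklr had 1 count. Ldha had 1137 TPM (1123 to 1152; rank 82), 316-fold above Ldhb, which had 35 counts. Aldoa (945 TPM), Pgam1 (828), Tpi1 (682), Pgk1 (613) and Eno1 (612) followed, whereas the hexokinases Hk1 (61.7) and Hk2 (40.1) were lower. With unique windows as length Pgk1 had 1529 TPM and stood above Ldha (1479) and Aldoa (1232). Gapdh was listed at 87 counts (3.40 TPM), with 75.4% of its windows unique among annotated transcripts. It has many processed pseudogenes in the mouse genome, and their part in this value was not tested. Slc2a1, the glucose transporter of keratinocytes, had 237 TPM, 4.98-fold above the fructose transporter Slc2a5, and the lactate exporters Slc16a1 and Slc16a3 had 139 and 114.

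Enzymes of the pentose phosphate pathway and of NADPH supply reached 1 TPM in 11 of 12 cases, at a median of 112 TPM, with Taldo1 (284) and G6pdx (234.3) highest. All 23 genes of the tricarboxylic acid cycle and pyruvate dehydrogenase reached 1 TPM (median 118 TPM), led by Mdh2 (521, or 881 with the longest transcript as length) and Cs (397). All 37 genes matched by name as nuclear subunits of complex I did so too, at a median of 129.7 TPM and within a range of 8.52 to 367. The 13 mitochondrially encoded proteins did not behave alike. In 8 of them at least 38.2% of the windows were unique, and they had at least 2515 counts, with mt-Co1 at 13172 TPM and mt-Nd1 at 10144. In the other 5 (mt-Nd3, mt-Nd4l, mt-Atp6, mt-Co2 and mt-Co3) at most 2.11% were unique, and they had at most 9 counts, although mt-Atp6 is made on the same transcript as mt-Atp8 (5916 counts).

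Of 27 genes of cholesterol synthesis and uptake 26 reached 1 TPM and 20 reached 100, at a median of 182 TPM against 1.42 for all protein-coding genes. Hmgcs1 had 966 TPM (954 to 977; rank 100), Idi1 861, Cyp51 541 and Fdps 397. Of the master regulators of lipid synthesis Srebf2 had 269 TPM and Srebf1 92.3. Idi2 had 0 counts. Of 39 fatty acid and barrier lipid genes 28 reached 1 TPM and 13 reached 100. The desaturase Scd2 had 1792 TPM (rank 35), 7.41-fold above Scd1, and the sebocyte form Scd3 had 1 count. Fasn had 494 TPM and Acly 469. Of the ceramide synthases Cers2 (154 TPM, 149 to 159) and Cers5 (154, 149 to 159) did not differ beyond counting error, and Cers3, which makes the very long ceramides of the barrier, had 115.

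All 28 genes of serine, one-carbon and amino acid synthesis reached 1 TPM and 14 reached 100. Shmt2 had 685 TPM, Asns 612, Psat1 587 and Phgdh, the entry enzyme of serine synthesis, 562. With unique windows as length Phgdh had 1044 TPM and stood above Shmt2 (610.4). Among amino acid transporters, the pair Slc7a5 (547 TPM) and Slc3a2 (379.6) and the carriers Slc38a2 (375) and Slc7a1 (273) were highest. Of the 49 transporters 20 (40.8%) reached 1 TPM, against 51.5% of all protein-coding genes. The transcription factor Nfe2l2 (Nrf2) had 215 TPM (209 to 221; rank 808). Of 31 glutathione, thioredoxin and Nrf2-linked genes 29 reached 1 TPM. Ftl1 (1499 TPM), Txn1 (1473), Prdx1 (1259.5) and Gpx1 (869) were highest. With unique windows as length Prdx1 (1175.4 TPM) stood above Txn1 (1002), and Gpx4 (790.3, or 284 with merged exons) stood above Gpx1 (785.6). Ftl1 had 26.4% unique windows, so its level is uncertain. Gsto1 (754 TPM) held 63.8% of the level of the glutathione transferases with merged exons as length. Gstp1 had 112 TPM with that length and 358.6 with unique windows.

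**Figure D5:**
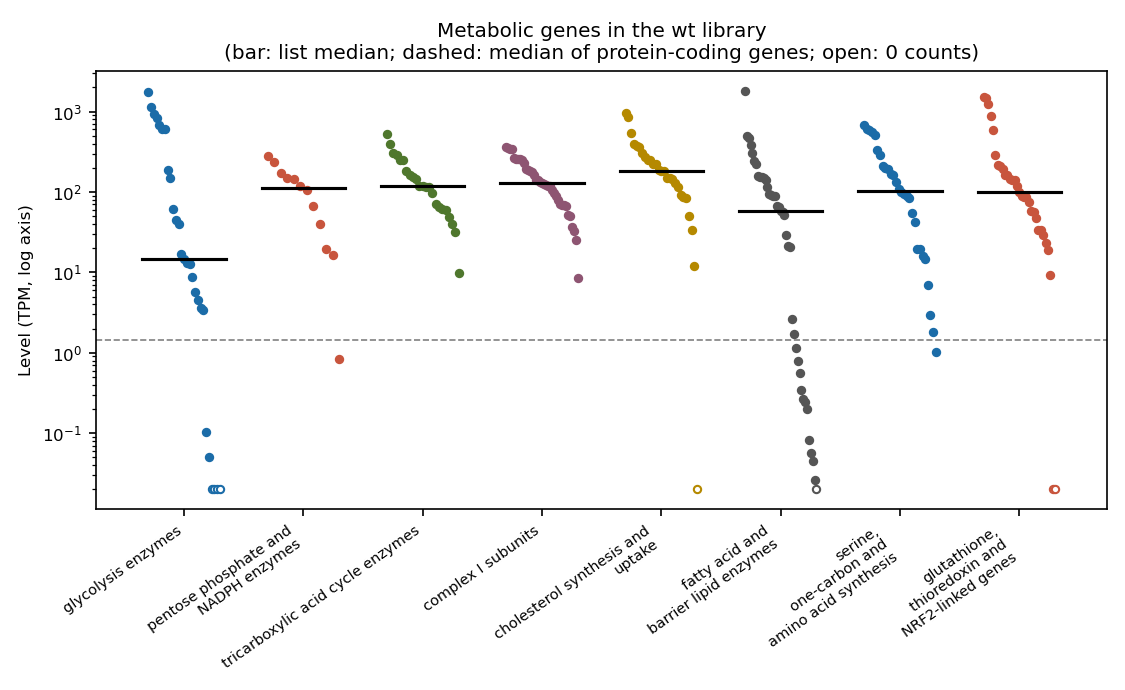
Level in TPM (vertical, log axis) of the members of 8 metabolic lists (horizontal) in the wt library, with 1 point per gene; thick bars are list medians, open circles genes with 0 counts, and the dashed line the median of all protein-coding genes, 1.42 TPM. All 8 medians lie above the dashed line, from 14.8 TPM for glycolysis, whose list holds tissue-specific isoenzymes, to 182 TPM for cholesterol synthesis and uptake.

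The actin cytoskeleton, whose Arp2/3 complex includes the gene named in the ARPC4 ko label, was represented by high levels of both cytoplasmic actins. Actb had 4273 TPM (4241 to 4304; rank 14) and Actg1 2357. Of the windows of Actg1 44.3% were unique, and with unique windows as length it had 4733 TPM, above Actb at 4127. The muscle actin genes Actc1 and Actg2 had 0 counts, whereas the smooth muscle actin gene Acta2 had 8.38 TPM. All 10 Arp2/3 genes reached 1 TPM, at a median of 302 TPM. Arpc2 had 734 TPM, Actr2 498, Arpc5 403, Actr3 387, Arpc1b 326, Arpc3 278, Arpc1a 173, Arpc4 147 (141 to 154; rank 1267) and Arpc5l 77.5. The form Actr3b, at 3.53 TPM, was far below Actr3, whereas both forms of the Arpc1 subunit exceeded 100 TPM. The order depends on the length: Arpc3 had 652 TPM with the longest transcript, and with unique windows Actr3 (756 TPM) stood above Arpc2 (686).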

How the data were processed

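Total RNA of the wt cells was extracted with TRIzol and made into a stranded mRNA library, read as 65-base single ends, per the labels' protocols. The authors deposited raw read counts per gene (Ensembl identifiers). TopHat2 2.1.0, Bowtie 1.1, HTSeq and mm10 are named in the submitters' processing notes. Neither the settings nor the strand mode and gene annotation are given in the sources used here, and reads of a gene and an overlapping antisense gene may not be separated. Non-gene entries (9.08% of the table) were left out of the 22924294 gene counts. Symbols, positions and merged exon lengths came from GENCODE M21, which named 40340 of 41214 identifiers. Those without a symbol held 0.119% of the counts. Promoter sequences came from RefSeq (GRCm38.p6).

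TPM, CPM, ranks and exact intervals were computed with Python 3.11.15, numpy 2.4.6, pandas 2.3.3 and scipy 1.17.1, after the script was tested on simulated data, and plotted with matplotlib 3.10.9. With 1 library no test was made, and the number of counts limits the precision. Genes came from 88 lists holding 1625 genes, chosen with earlier results of these data known. Named were the 20 protein-coding genes of highest TPM, the 6 highest members of each list and its members with 0 counts where 6 or fewer, every member of lists with 12 or fewer, and Krt5, Krt14, Trp63, Itga6, Arpc4 and Nfe2l2. Any other gene (such as Krt15, Gapdh, Ldhb, Lor, Col1a1 and Rb1) was named after its value was seen, predicted genes are not named, and some genes that the rule names are not reported here. Alternatives were another length, no length, another denominator and other thresholds.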

Additional observations from a re-analysis of the deposited data

How the results depend on the processing

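The count of protein-coding genes at 1 TPM or more (11049) was 10987 with the longest transcript as length, 10998 at 1 CPM, 11128 without mitochondrial genes, ribosomal protein genes and the 10 genes of most counts, 11586 at 0.5 TPM and 9514 at 5 TPM. With a length in 65-base windows unique among annotated transcripts, an alternative chosen after seeing the data, it was 10896. Of 88 list counts, 11 moved by over 1.5 times at 5 TPM, 8 at 0.5 TPM and 5 at 1 CPM. Keratins held 4.48% of TPM, but 3.47% with the longest transcript, 3.38% with unique windows and 0.228% without the gene groups named above, a setting that removes the highest keratins themselves. Ribosomal protein genes held 7.43%, 8.27% with the longest transcript and 12.1% with unique windows. Mitochondrially encoded proteins held 4.19%, 3.19% and 3.78% in the same order. Of 520 named genes with at least 1 count, including genes below 1 TPM, 26 moved by over 1.5 times with the longest transcript. Among them were Jup (930.4 TPM), Il17re (38.2), Cdh13 (10.8) and Tcf4 (6.69). With unique windows 140 moved by over 1.5 times, while the median named gene moved to 0.768 of its level. Among those that rose were Ftl1 (5313 TPM), Actg1 (4733), Pgk1 (1529), Phgdh (1044) and Actr3 (756).

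The alternative with windows unique in the genome was not run. No paired analysis was possible because 1 library was described, and no replicate could be left out. Depth limits genes near 1 TPM, where the median gene at 1 to 2 TPM had 32 counts.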

Other observations

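Several gene families not described above were also measured. All 4 TEAD factors, the DNA-binding partners of Yap1, reached 1 TPM, from 17.7 TPM for Tead3 to 52.4 for Tead4. Of 7 STAT factors, which carry cytokine signals to the nucleus, 6 did, with Stat6 (93.7 TPM) and Stat3 (56.0) highest. Irf3 had 65.7 TPM and Irf1 42.1. Of 44 forkhead factors 19 (43.2%) reached 1 TPM, against 51.5% of all protein-coding genes. Foxk2 (147 TPM), Foxm1, a factor of dividing cells (82.8), and Foxk1 (54.4) were highest. Foxn1, which acts in hair and epidermal differentiation, had 42.3. Among 22 FGF ligands Fgf21 (21.7 TPM), Fgf13 and Fgf11 (1.70) were the members at 1 TPM or more.

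Of 20 markers of hair follicle and sebaceous gland 3 reached 1 TPM: Sox9 (94.1 TPM), Nfatc1 (8.73) and Foxe1 (1.61). Of 12 tight junction genes, F11r (254 TPM) and Tjp1 (168) followed Cldn4, and Tjp3 (0.782) was the member below 1 TPM. Among 20 aldehyde dehydrogenases Aldh18a1 of proline synthesis had 209.5 TPM and the mitochondrial folate enzyme Aldh1l2 98.6. Of 33 actin and actin-binding genes 27 reached 1 TPM. After Actb and Actg1 came tropomyosin 4 (Tpm4, 1685 TPM), cofilin 1 (Cfl1, 1379.6), Tagln2 (1340.1) and thymosin beta 4 (Tmsb4x, 1331). Of 85 cytosolic ribosomal protein genes 82 reached 1 TPM, at a median of 578 TPM, and in the median such gene 72.4% of the windows were unique among annotated transcripts.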
